A study of Mus musculus with 20 samples.

Results

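The miRNAs described here come from 6 intronic hairpins, those of miR-139 in Pde2a, miR-149 in Gpc1, miR-326 in Arrb1, miR-330 in Eml2, miR-342 in Evl and miR-346 in Grid1. Every row of the deposited table that names one of these 6 stems was taken, whichever arm it came from, which gave 8 mature miRNAs of the 281 listed, among them mmu-mir-149-5p and mmu-mir-342-3p as the table spells them. The libraries came from the right ventral hippocampus of naïve wildtype male C57BL/6JOlaHsd mice, 10 given cannabidiol (CBD) and 10 given vehicle. CBD is a plant cannabinoid without the intoxicating action of tetrahydrocannabinol. It was injected intraperitoneally at 200 mg/kg/day, in 2 injections a day for 5 days. The other mice received vehicle on the same schedule of 2 injections a day for 5 days. Neither the composition of the vehicle nor the age of the mice is given in the sources used here. The comparison asks whether repeated CBD changes hippocampal miRNA levels in otherwise untreated mice.

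An intronic miRNA is cut from the transcript of the gene in which it lies. The Microprocessor complex releases a hairpin from the intron, Dicer trims it to a short duplex, and 1 strand of the duplex, the 5p or the 3p arm, is usually kept in Argonaute while the other is lost. Bases 2 to 8 of the kept strand, the seed, carry most of the pairing to target messages. The host genes act in signalling and in the shaping of neurons. Pde2a breaks down cGMP and cAMP, Gpc1 is a heparan sulphate proteoglycan of the cell surface, and Arrb1 is the arrestin that uncouples G protein-coupled receptors. Eml2 binds microtubules, Evl promotes actin filament growth, and Grid1 is a delta glutamate receptor subunit that organises synapses. The libraries hold small RNA, so the host messages themselves were not measured.

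The mature sequences are shown to give each member's seed and because 1 seed occurs in a pair of them. They are RefSeq sequences of GRCm38.p6, written 5′ to 3′ with the seed in capitals. All 8 members were matched by name.
miR-139-5p: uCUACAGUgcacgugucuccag
miR-149-5p: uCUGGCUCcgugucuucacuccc
miR-326-3p: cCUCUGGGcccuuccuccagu
miR-330-3p: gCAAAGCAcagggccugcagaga
miR-330-5p: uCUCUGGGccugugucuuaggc
miR-342-3p: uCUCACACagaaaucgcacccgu
miR-342-5p: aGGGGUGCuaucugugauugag
miR-346-5p: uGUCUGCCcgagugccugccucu

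The 8 members carry 7 distinct seeds. The pair with a common seed is miR-326-3p and miR-330-5p, which come from different hosts on chromosome 7 and both read CUCUGGG at bases 2 to 8. Among the 247 of 281 miRNAs of the table that could be matched to a RefSeq mature sequence, no other miRNA had this seed. The seed of miR-330-3p, CAAAGCA, also occurs in miR-6240, which is no member and had a mean log2 level of 10.55. The members are rich in G and C, from 50.0% in miR-342-5p to 66.7% in miR-326-3p, against a median of 47.8% over the matched miRNAs.

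For miR-330 and miR-342 both arms are in the table, and their hairpins are printed to show where the arms lie, with the mature arms in capitals and the 5p arm first.
Mir330: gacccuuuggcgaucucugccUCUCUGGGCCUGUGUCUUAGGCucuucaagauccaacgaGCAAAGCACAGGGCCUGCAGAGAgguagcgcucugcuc
Mir342: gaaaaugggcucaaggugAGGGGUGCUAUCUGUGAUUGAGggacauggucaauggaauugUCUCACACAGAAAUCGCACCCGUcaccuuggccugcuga

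All 6 hairpins lie on the plus strand, as do their hosts. In GENCODE M21 on GRCm38, the build that the submitters name as mm10, Mir139 lies at chr7:101475376-101475443, within introns of all 10 Pde2a transcripts that span it, and the overlapping gene model Gm45837 spans it too. Mir149 lies at chr1:92850378-92850443 in intron 1 of Gpc1, and Mir326 at chr7:99552269-99552363 within introns of 5 Arrb1 transcripts. Mir342 lies at chr12:108658620-108658718 within introns of 5 Evl transcripts, and Mir346 at chr14:34894609-34894706 in intron 2 of Grid1. Mir330, at chr7:19181465-19181562, is the exception, since 6 of the 7 Eml2 transcripts that span it have it in an intron and 1 has it in an exon. For miR-139, miR-149, miR-326 and miR-346 only 1 of the 2 annotated arms is in the table.

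The authors deposited log2 RPM (reads scaled to a library of 1000000), and the whole read numbers behind them could be recovered. Listed total reads per library were 242178 to 1245429, the 8 members together held 0.939% to 2.55% of them, and the lowest read number of a member in any library was 11. The labels give each mouse as a separate sample, and in all 90 pairs of libraries within a group the counts differed beyond sampling noise. The authors' technical table also gives each library a run number from 1 to 4, whose meaning is not stated. Runs 1 to 4 hold 5, 6, 4 and 5 libraries, of which 3, 3, 2 and 2 are from CBD mice. Of the libraries, 3 stand apart in their scaling: in CBD replicates 6 and 8 and vehicle replicate 5, the effective library is 0.714, 0.693 and 0.788 of the listed total, against 0.956 or more in the others. Results that rest on these 3 libraries are given with and without them. Of the tissue markers fixed for the check, all 4 neuronal ones are in the table, at uneven mean log2 levels. These were 16.85 for miR-9-5p, 14.56 for miR-128-3p, 10.56 for miR-124-3p and 9.76 for miR-9-3p. The red blood cell markers miR-451a and miR-144-3p and the liver marker miR-122-5p are not among the 281 miRNAs.

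In the hippocampus of these mice the intronic miRNAs ranged from the abundant miR-149-5p to the scarce miR-342-5p. By mean level over the 20 libraries, miR-149-5p ranked 24 of 281, at a mean log2 level of 12.72 ± 0.76 (SD, n = 20). Next came miR-342-3p, rank 40 at 11.54 ± 0.49, then miR-326-3p, rank 57 at 10.90 ± 0.56, and miR-139-5p, rank 61 at 10.79 ± 0.40. Both arms of miR-330 lay in the middle of the table, miR-330-3p at rank 140 with 8.59 ± 0.56 and miR-330-5p at rank 155 with 8.15 ± 0.36. The lowest were miR-346-5p, rank 174 at 7.68 ± 0.63, and miR-342-5p, rank 246 at 6.57 ± 0.76. These are levels in reads, and adapters ligate to different small RNAs with different efficiency, so the order is one of reads and not of molecules.

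**Figure D1:**
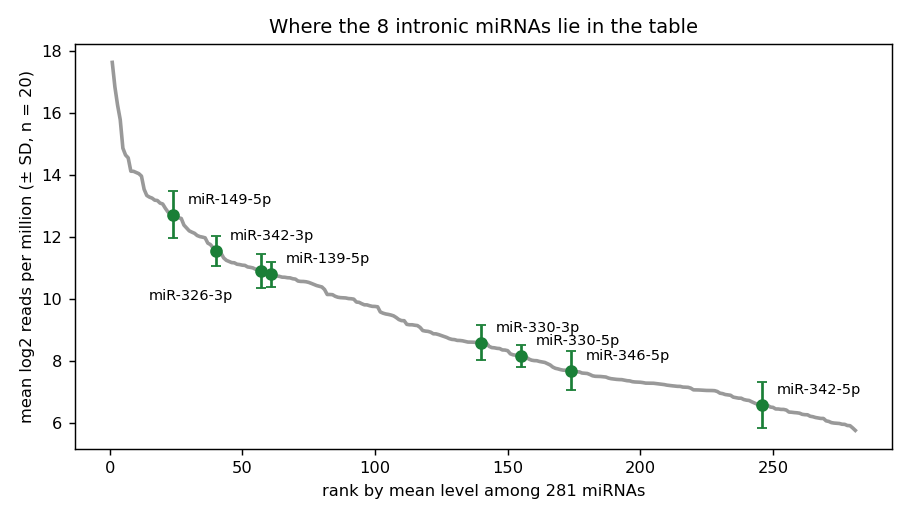
The grey line gives the mean log2 RPM of all 281 miRNAs in rank order, and the green points give the 8 intronic miRNAs with their SD over 20 libraries. The members run from rank 24 to rank 246, with miR-326-3p and miR-139-5p side by side.

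Some steps in this order held in every library and others did not. The level of miR-149-5p exceeded that of miR-342-3p in 20 of 20 libraries, by 1.18 ± 0.58 on the log2 scale, and miR-139-5p exceeded miR-330-3p in 20 of 20, by 2.21 ± 0.28. In contrast miR-326-3p exceeded miR-139-5p in 12 of 20, with a difference of 0.10 ± 0.50, and miR-330-3p exceeded miR-330-5p in 11 of 20, with 0.44 ± 0.71. These last neighbours were not separated by more than their spread, nor were miR-342-3p and miR-326-3p, at 0.64 ± 0.65, or miR-330-5p and miR-346-5p, at 0.47 ± 0.79. The lowest step, from miR-346-5p to miR-342-5p, was 1.11 ± 0.53 and held in 19 of 20 libraries. The most variable member in relative terms was miR-342-5p, with 27.8 RPM in vehicle replicate 7 and 216.6 in CBD replicate 6, a range of 7.79-fold. That place rests on vehicle replicate 7, where it had 11 reads, and without this library the range was 4.54-fold, below the 6.07-fold of miR-149-5p. CBD replicate 6, with the highest value of miR-342-5p and of miR-149-5p, is a library of low scaling. Without it the ranges were 7.10-fold for miR-342-5p and 4.65-fold for miR-149-5p. The 7.42-fold range of miR-346-5p also rests on vehicle replicate 7 and was 2.99-fold without it. The steadiest was miR-330-5p, with a range of 2.64-fold, but without vehicle replicate 7 the range of miR-139-5p was smaller, at 2.51-fold.

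No member differed between CBD and vehicle mice after adjustment over the table. Of the 8 members, 6 had a lower mean with CBD and 2 a higher one, with a median log2 difference of -0.08, the same as the -0.08 over all 281 miRNAs, of which 61.6% were lower. The count of lower members depends on the scaling, being 4 after median centring, 5 after quantile normalisation and 7 after rescaling to total reads. In the limma fit 0 of the 8 members passed an adjusted p under 0.05 and 0 passed an unadjusted p under 0.05, where 0% and 7.83% of all miRNAs did. With run number as a further term, 0 passed after adjustment, as for all miRNAs (0%), and 1 at an unadjusted p under 0.05, against 15% of all miRNAs. In whole tissue, fewer cells of a type and less RNA per cell cannot be told apart.

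That 1 member was miR-330-3p, the arm from the Eml2 hairpin that pairs through CAAAGCA. With CBD its log2 level was 7.27 at the lowest, 8.47 at the median and 9.12 at the highest, and with vehicle it was 8.16, 8.72 and 9.68. The 2 groups overlapped over most of their range, and 7 of 10 CBD libraries lay below the vehicle mean. The difference in log2 level was -0.35 (SE 0.24, limma p = 0.167, adjusted p = 0.689), with group means of 8.41 ± 0.52 and 8.76 ± 0.56 (SD, n = 10 each). With the run term it was -0.42 (SE 0.16, limma p = 0.0138, adjusted p = 0.225). Within runs 1 to 4 the difference was -0.46, -0.63, -0.56 and -0.01, so it was negative in 4 of 4 runs but close to 0 in run 4. In runs 1, 2 and 3 every CBD library lay below every vehicle library of the same run, with 9.12 and 9.15, 8.78 and 9.08, and 8.08 and 8.22 as the nearest values. Such a separation in 3 or more runs, looked for after the values were seen, was found in 1 of 8 members and 2.14% of all miRNAs. A sign shared by 4 of 4 runs was seen in 1 of 8 members and in 21.7% of all miRNAs. An exact permutation test within runs, two-sided over 12000 relabellings, gave p = 0.00342 and adjusted p = 0.217 over 281 miRNAs. The authors' deposited table lists it at a log2 fold change of -0.42 with p = 0.0128 and adjusted p = 0.137. That table gives a mean log2 level of 8.51 where the 20 columns give 8.59, so it was not computed as the plain mean of these columns. The size rests in part on the 3 libraries of low scaling. Without them the difference was -0.12 (limma p = 0.576), or -0.26 with the run term (limma p = 0.0750), and with array weights it was -0.004, or -0.29 with array weights and the run term (limma p = 0.0195, adjusted p = 0.166).

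The abundant members were close to even between the groups. The log2 level of miR-149-5p, the Gpc1 miRNA, was 11.88, 12.70 and 14.48 with CBD and 11.99, 12.33 and 14.09 with vehicle, as lowest, median and highest. Its difference was 0.07 (SE 0.32, 95% interval -0.59 to 0.73, limma adjusted p = 0.964), or 0.03 with the run term (95% interval -0.36 to 0.41). Of the 10 CBD libraries 5 lay above the vehicle mean and 5 below, and the sign turned between runs, with 0.18, -0.05, 0.27 and -0.23 in runs 1 to 4. For miR-342-3p, the main arm of the Evl hairpin, the log2 level was 10.77, 11.57 and 12.02 with CBD and 10.61, 11.67 and 12.23 with vehicle. Its difference was -0.10 (SE 0.22, limma adjusted p = 0.927), or -0.16 with the run term (95% interval -0.43 to 0.10), and it was -0.23, -0.23, 0.21 and -0.32 within runs 1 to 4. Both intervals span 0 and are wide, so equality is not shown.

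Both groups overlapped for miR-326-3p, miR-139-5p, miR-346-5p and miR-330-5p as well. The Arrb1 miRNA miR-326-3p had a log2 difference of -0.06 (SE 0.25, limma adjusted p = 0.964), or -0.14 with the run term. Within runs it went from -0.63 and -0.53 in runs 1 and 2 to 0.44 and 0.36 in runs 3 and 4. The Pde2a miRNA miR-139-5p had -0.14 (SE 0.19, limma adjusted p = 0.878), or -0.19 with the run term, with -0.07, -0.54, 0.05 and -0.07 within runs. For the Grid1 miRNA miR-346-5p it was -0.03 (SE 0.28, limma adjusted p = 0.964), or -0.10 with the run term, with -0.44, -0.46, 0.71 and 0.03 within runs. For miR-330-5p it was -0.09 (SE 0.19, limma adjusted p = 0.915), or -0.09 with the run term, with -0.29, 0.19, -0.46 and 0.04 within runs. Each of these differences had both signs among the 4 runs.

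The scarce arm of the Evl hairpin, miR-342-5p, had the largest positive difference among the members, and that value came from run 3. Its log2 difference was 0.31 (SE 0.32, limma p = 0.343, adjusted p = 0.831), or 0.23 with the run term (limma adjusted p = 0.724). Without the 3 libraries of low scaling, of which CBD replicate 8 is in run 3, it was 0.16, and without vehicle replicate 7 it was 0.13. The level in run 3 was 6.60 in CBD replicate 7 and 7.63 in CBD replicate 8, against 5.62 in vehicle replicate 6 and 4.80 in vehicle replicate 7, where it rested on 11 reads. In runs 1, 2 and 4 the difference was -0.57, 0.07 and -0.16, beside 1.91 in run 3, and without run 3 it was -0.09. The difference between runs in the CBD effect gave p = 0.00285 in the limma interaction test, or 0.267 once adjusted. That made 1 of 8 members at an unadjusted p under 0.05, against 4.98% of all miRNAs, and 0 after adjustment, as for all miRNAs (0%).

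**Figure D2:**
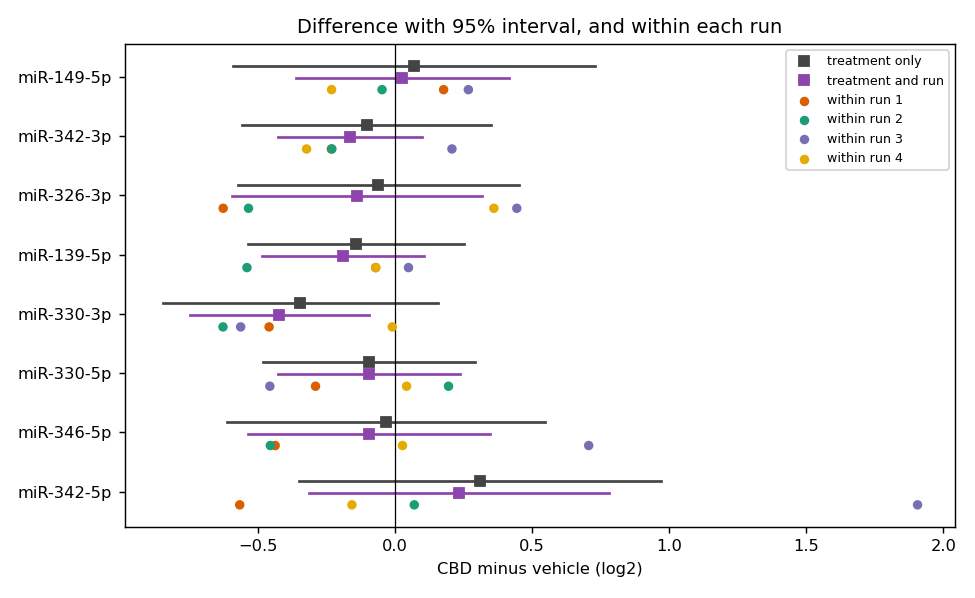
For each member the upper square and line give the log2 difference, CBD minus vehicle, with its 95% interval from the fit with treatment only, and the lower square and line that with treatment and run. The dots below give the difference within each run. Every interval of the fit with treatment only spans 0, and the interval with the run term excludes 0, unadjusted, for miR-330-3p (-0.75 to -0.10).

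The levels of most members differed between runs. When run was tested in limma beside treatment, 6 of the 8 members passed an adjusted p under 0.05, against 48% of all miRNAs (135 of 281). The members' run means spanned a median of 1.06 on the log2 scale, against 0.87 over all miRNAs. Without the 3 libraries of low scaling, 7 of 8 members and 100 of 281 miRNAs passed. In 6 of 8 members the mean level was highest in run 2, as in 29.5% of all miRNAs. The 6 that passed and the 6 highest in run 2 were the same miRNAs, a combination seen in 19.9% of the table. The count highest in run 2 was 4 without vehicle replicate 5, 3 without CBD replicate 3 of run 1, and 6 without all 3 libraries of low scaling. In 4 of 8 members the level was lowest in run 3, as in 23.5%, and in 6 of 8 without CBD replicate 8. These counts are set beside those of the whole table as a description.

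The largest difference was that of miR-149-5p. Its log2 level in run 1 was 12.66, 13.01 and 12.14 in CBD replicates 1 to 3 and 12.60 and 12.25 in vehicle replicates 1 and 2. In run 2 it was 13.08, 13.36 and 14.48 in CBD replicates 4 to 6 and 13.97, 13.00 and 14.09 in vehicle replicates 3 to 5. In runs 3 and 4 it lay between 11.88 and 12.74 in all 9 libraries. The libraries of run 2 were thus the highest of both treatments, and the lowest of them, vehicle replicate 4, was level with CBD replicate 2 of run 1. The run means were 12.53 ± 0.35, 13.66 ± 0.60, 12.30 ± 0.33 and 12.09 ± 0.17 (SD, limma adjusted p = 0.000672). Of the 3 libraries of low scaling 2 are in run 2, and without all 3 the difference still passed, with the highest adjusted p over the alternatives at 0.00568.

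A second pattern, with runs 1 and 2 above runs 3 and 4, was shown by miR-342-3p, miR-330-3p, miR-139-5p and miR-346-5p. For miR-342-3p the log2 levels were 11.72, 11.97, 11.41, 11.98 and 11.89 in run 1, and 11.74 to 12.23 with a median of 12.00 in run 2. In run 3 they were 11.27, 10.77, 11.02 and 10.61, and in run 4 they were 11.13, 10.92, 11.18, 11.46 and 11.40. Only CBD replicate 3 of run 1, at 11.41, was lower than a library of run 4, vehicle replicate 9 at 11.46. The run means were 11.80 ± 0.24, 12.00 ± 0.17, 10.92 ± 0.29 and 11.22 ± 0.22 (SD, limma adjusted p = 0.000672). The level of miR-330-3p was 8.25 to 9.25 in run 1, 8.58 to 9.68 in run 2, 7.27 to 8.26 in run 3 and 8.12 to 8.36 in run 4 (limma adjusted p = 0.00269). Those of miR-139-5p were 11.02, 11.09, 10.36 and 10.57, and those of miR-346-5p were 7.99, 8.13, 6.97 and 7.39 (limma adjusted p = 0.0153 each). In these 4 miRNAs from 4 different hosts run 3 was lowest. Run 2 was the highest, by a margin over run 1 within the spread of their libraries, and without vehicle replicate 5 run 1 was highest for miR-139-5p, at 11.02 against 10.97, and for miR-330-3p, at 8.92 against 8.87.

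The remaining members followed neither pattern in full. The run means of miR-342-5p were 6.79, 7.15, 6.16 and 5.98 (limma adjusted p = 0.0362), a call that rests on few reads and was lost in 9 of 20 fits that each left out 1 library, at adjusted p up to 0.0708, and under median centring, at 0.0536. Such a loss was seen without vehicle replicates 1, 2, 3, 5, 6 and 8 and without CBD replicates 6, 9 and 10. For miR-326-3p the means were 11.40, 10.70, 10.87 and 10.65 (limma adjusted p = 0.113). This passed without CBD replicate 3 or CBD replicate 8, at adjusted p of 0.0419 and 0.0494, without all 3 libraries of low scaling, at 0.0479, and after rescaling to total reads, at 0.0451. For miR-330-5p they were 8.30, 7.80, 8.26 and 8.33 (limma adjusted p = 0.0999), which passed without CBD replicate 8 at an adjusted p of 0.0352 and under median centring at 0.0361. Thus miR-330-5p was lowest in run 2, where miR-330-3p of the same hairpin was highest.

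**Figure D3:**
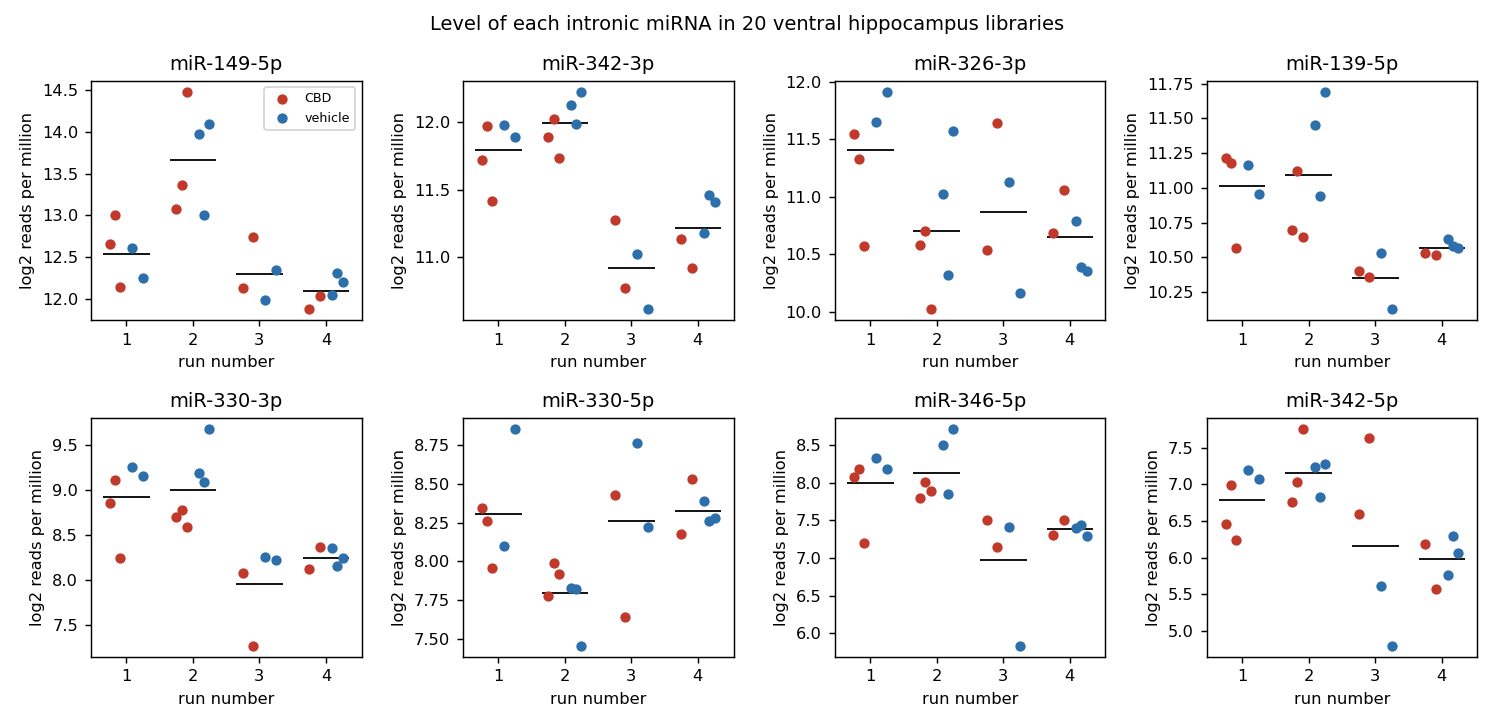
Each panel gives the log2 RPM of 1 member in the 20 libraries by run number, with CBD libraries in red, vehicle libraries in blue and the run mean as a black line. Run 2 is highest for miR-149-5p, runs 1 and 2 lie above runs 3 and 4 for miR-342-3p, miR-139-5p, miR-330-3p and miR-346-5p. Red points lie below all blue points of the same run in runs 1 to 3 for miR-330-3p, and above them in run 3 for miR-342-5p.

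Some other features of the libraries moved with the run number, while others overlapped between runs. The marker of immune cells in the table, miR-150-5p, 1 of 4 listed, had a log2 level of 13.16 to 14.57 in run 2 and of 11.15 to 12.94 in the other runs. The summed log2 level of the choroid plexus and ependyma markers, 3 of 5 in the table, was 14.32 to 15.06 in run 3 and 12.04 to 14.41 in the other runs. The summed neuronal markers, 4 of 4, lay at 16.61 to 17.54, 16.57 to 17.35, 17.27 to 17.92 and 17.04 to 17.50 in runs 1 to 4. In this sum miR-9-5p weighs most, at a mean log2 level of 16.85. The neuronal marker miR-124-3p alone had means of 11.02, 10.01, 10.47 and 10.85 in runs 1 to 4. The summed oligodendrocyte markers, 3 of 3, lay at 8.61 to 10.18, 8.26 to 9.24, 9.09 to 11.00 and 8.91 to 9.70, and the blood vessel markers, 4 of 4, at 11.75 to 12.52, 11.62 to 13.12, 11.98 to 13.05 and 11.78 to 12.22. Total reads averaged 788870, 533376, 555710 and 914970 in runs 1 to 4, with ranges that overlapped between the runs. The part of these features in the differences between runs was not tested. Between treatments the same sums overlapped, at 16.57 to 17.92 with CBD and 16.82 to 17.34 with vehicle for the neuronal markers, with blood vessel markers at 11.62 to 12.48 with CBD and 11.71 to 13.12 with vehicle, and oligodendrocyte markers at 8.26 to 9.70 and 8.96 to 11.00. The choroid plexus and ependyma sum was 12.44 to 14.52 with CBD, with a median of 14.16, and 12.04 to 15.06 with vehicle, with a median of 12.99, the widest gap of medians among the lists. In this sum miR-204-5p weighs most, at a mean log2 level of 13.34 against 7.96 for miR-34b-5p and 8.81 for miR-34c-5p. The log2 differences of these 3 were 0.45, 0.16 and -0.26 (limma, unadjusted p = 0.247, 0.816 and 0.620). The immune marker miR-150-5p lay at 11.49 to 14.24 with CBD and 11.15 to 14.57 with vehicle. Of these markers miR-126a-3p and miR-126a-5p of blood vessels had log2 differences of -0.52 and -0.74 between CBD and vehicle (limma, unadjusted p = 0.0202 and 0.0108), and miR-338-3p of oligodendrocytes had -0.62 (limma, unadjusted p = 0.0252). With the run term miR-124-3p of neurons had -0.57 and miR-145a-5p of vessel muscle -0.63 (limma, unadjusted p = 0.0140 and 0.0133). Of the same lists, miR-9-5p, miR-128-3p and miR-143-3p did not share this, at 0.18, 0.0027 and 0.03 with the run term. The remaining markers of these lists were also lower with the run term, at -0.57 for miR-219a-5p, -0.35 for miR-219a-2-3p and -0.41 for miR-9-3p. Their unadjusted limma p was 0.061, 0.148 and 0.112. None of the markers passed after adjustment in either fit, and the markers' part in the members' differences was not tested.

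The balance of the 2 arms of the Eml2 hairpin differed between runs. A difference between arms within a library does not depend on how that library is scaled. The log2 level of miR-330-3p minus that of miR-330-5p was above 0 in all 11 libraries of runs 1 and 2, from 0.29 to 2.22. In runs 3 and 4 it was below 0 in 8 libraries and equal in vehicle replicate 7, from -0.50 to 0.00. The 2 sets of runs therefore did not overlap in either treatment. The mean was 0.62 ± 0.38 in run 1, 1.20 ± 0.57 in run 2, -0.30 ± 0.21 in run 3 and -0.07 ± 0.06 in run 4 (SD). A permutation test of the run labels with 100000 resamples, added after the values were seen, gave p = 8e-05 and adjusted p = 0.00016 over the 2 hairpins. As a ratio of 3p to 5p levels this spans 0.708 to 4.67. Without the 3 libraries of low scaling the permutation p was 4e-05. The arm balance of hairpins outside the members was not examined, so the difference is not shown to be particular to this hairpin.

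The Evl hairpin kept its dominant arm throughout. The level of miR-342-3p was 8.84 to 56.2 times that of miR-342-5p, and the log2 difference of the arms was 5.00 ± 0.21, 4.85 ± 0.44, 4.76 ± 1.17 and 5.24 ± 0.19 in runs 1 to 4 (SD, permutation test, p = 0.657). The lowest values were 3.14 in CBD replicate 8 and 3.98 in CBD replicate 6, both libraries of low scaling, and the highest 5.81 in vehicle replicate 7.

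Between treatments the arm balance did not pass a test after adjustment. For miR-330 the log2 difference of the arms averaged 0.31 ± 0.51 in CBD mice and 0.56 ± 0.87 in vehicle mice (SD, n = 10 per group), a change of -0.25 (permutation test with 100000 resamples, p = 0.443, adjusted p = 0.443 over the 2 hairpins). With the run term it was -0.33 (exact permutation within runs, p = 0.0415, adjusted p = 0.083), with -0.17, -0.82, -0.11 and -0.05 in runs 1 to 4. Most of this came from run 2, in which vehicle replicates 3 to 5 had 1.35, 1.26 and 2.22 and CBD replicates 4 to 6 had 0.92, 0.79 and 0.66. For miR-342 it was 4.76 ± 0.69 with CBD and 5.17 ± 0.32 with vehicle, a change of -0.41 (permutation test, p = 0.0980, adjusted p = 0.196). With the run term this was -0.40 (exact permutation within runs, p = 0.147, adjusted p = 0.147), with 0.33, -0.30, -1.70 and -0.17 in runs 1 to 4. Without the 3 libraries of low scaling the changes were -0.03 for miR-330 and -0.14 for miR-342.

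**Figure D4:**
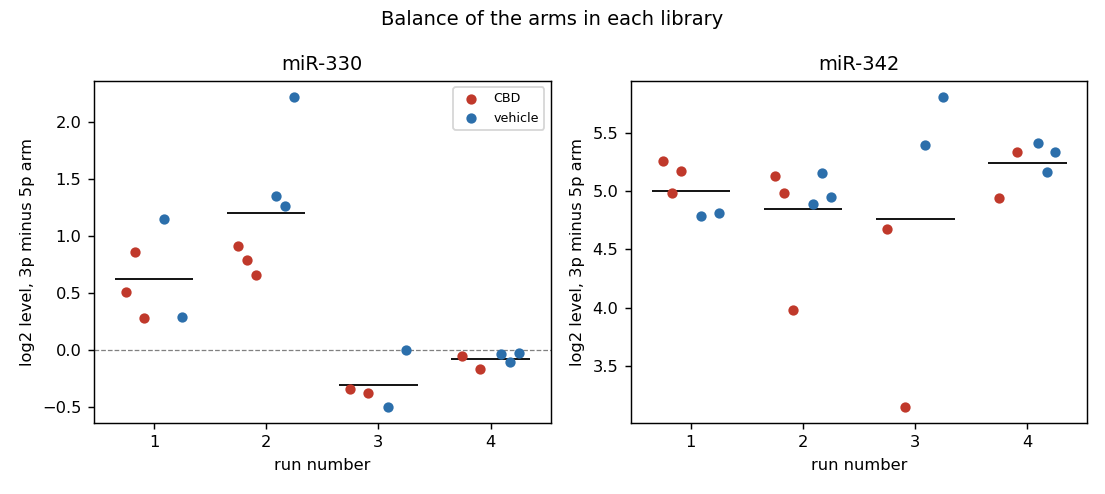
The log2 level of the 3p arm minus that of the 5p arm in each library is shown by run for miR-330 and miR-342, with CBD in red, vehicle in blue and the run mean as a black line. For miR-330 all libraries of runs 1 and 2 lie above 0 and none of runs 3 and 4 does, while miR-342 stays between 3.14 and 5.81.

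The seed CUCUGGG reached the libraries mostly through the Arrb1 hairpin. Of the summed RPM of miR-326-3p and miR-330-5p, the latter gave 5.46% in vehicle replicate 5, 14.4% at the median and 20.7% in vehicle replicate 7. The 2 miRNAs of this seed did not vary together, with Pearson's r of -0.05 over 20 libraries after the run means were removed and 0.12 before. Across libraries several members from different hosts did vary together. With run means removed, r was 0.76 between miR-139-5p and miR-346-5p, 0.73 between miR-342-3p and miR-346-5p, 0.72 between miR-326-3p and miR-346-5p and 0.71 between miR-139-5p and miR-326-3p. Between the arms of the same hairpin r was 0.35 for miR-330 and 0.36 for miR-342. These values lay below those of the pairs just named but close to the median of 0.33 over the 28 pairs of members. The value for miR-342 also rests on the few reads of miR-342-5p, 11 to 148 per library. Of the 28 pairs of members 8 had an r above 0.5, against 10.4% of all pairs in the table, and the median was 0.33 against 0.01. These correlations are descriptions, since all points share their library and its scaling.

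**Figure D5:**
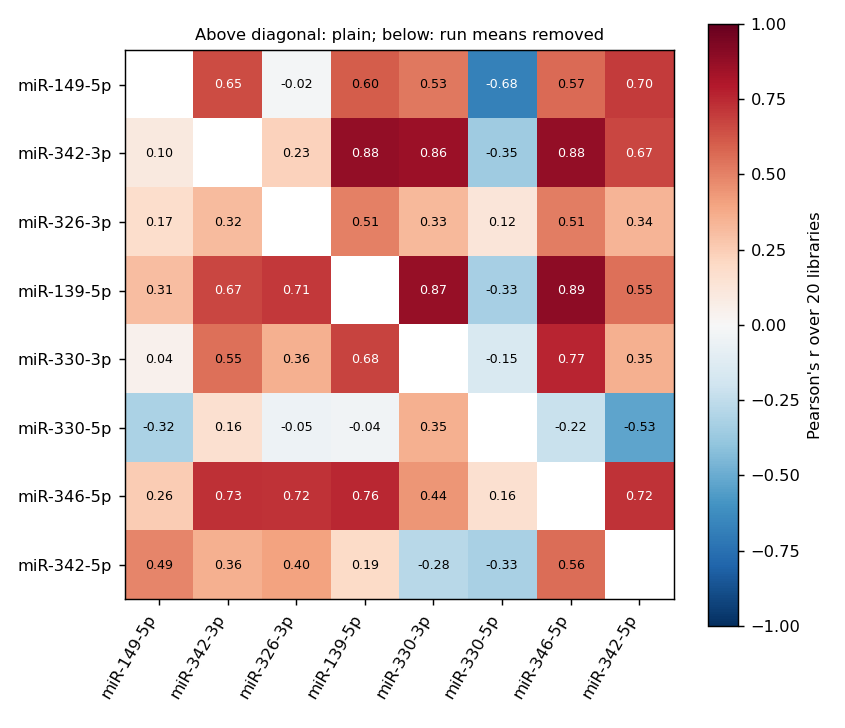
Colours and numbers give Pearson's r between the log2 levels of 2 members over 20 libraries, plain above the diagonal and with run means removed below it. The pairs among miR-139-5p, miR-342-3p and miR-346-5p stay above 0.6 on both sides, while miR-149-5p keeps no r above 0.49 once run means are removed.

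The miRNAs most like each member, by r over 20 libraries with run means removed, differed between the members. For miR-149-5p they were miR-433-3p at 0.94, miR-877-3p at 0.88 and miR-667-3p at 0.84, of which miR-433-3p and miR-667-3p lie in the imprinted region of chromosome 12. For miR-342-3p they were miR-222-3p at 0.82, miR-700-5p at 0.76 and miR-221-3p at 0.73, where miR-221 and miR-222 are neighbours on chromosome X. For miR-346-5p they were miR-700-5p at 0.79, the member miR-139-5p at 0.76 and miR-212-5p, of the activity-regulated miR-132/212 cluster, at 0.76. For miR-139-5p they were miR-296-5p, miR-532-3p and miR-125b-5p, from 0.85 to 0.80. For miR-326-3p they were miR-125b-5p, miR-345-5p and miR-324-5p, from 0.85 to 0.80. The arms of miR-330 had different lists, with miR-300-3p, miR-181a-5p and miR-296-5p at 0.73 to 0.69 for the 3p arm and miR-329-5p, miR-181c-5p and miR-124-5p at 0.74 to 0.73 for the 5p arm. The best matches of miR-342-5p were weaker, at 0.65 for miR-28a-5p, 0.63 for miR-431-3p and 0.63 for miR-760-3p.

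A list of other miRNAs that lie in genes of neuronal or signalling function gives a point of comparison. It names 16 stems, of which 11 had 15 arms in the table. The list was chosen by name, with earlier results of these data known, so the contrast with the members is a description. Of the 15 arms 13 had a lower mean with CBD, with a median log2 difference of -0.40. Over all 281 miRNAs 61.6% were lower, with a median of -0.08, and the 8 members had 6 lower and a median of -0.08. The list shares miR-128-3p, miR-338-3p and miR-204-5p with the marker lists. None of the 15 passed an adjusted p under 0.05 in limma, 3 were lower at an unadjusted p under 0.05 (5.34% of all miRNAs) and 4 with the run term (10.7%). These 4 were miR-153-3p of Ptprn2, a gene of secretory vesicles, at -1.04, miR-338-3p of the kinase gene Aatk at -0.64, and miR-151-5p and miR-151-3p of Ptk2, the focal adhesion kinase, at -0.45 and -0.40 with the run term. Their limma adjusted p was 0.185 for the first 3 and 0.252 for miR-151-3p. Between runs 9 of the 15 passed after adjustment, against 48% of all miRNAs, with a median span of run means of 0.94 against 0.87.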

How the data were processed

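Small RNA was sequenced from the right ventral hippocampus of 10 CBD and 10 vehicle mice, with Trizol extraction and an Illumina TruSeq small RNA kit, per the labels' protocols. The authors deposited log2 values for 281 miRNAs, and by the submitters' processing notes the authors used edgeR, limma and mm10. The sources used here do not give the aligner, read counter or miRNA catalogue. Each value equals log2((n + 0.5) / (L + 1) × 1000000) with n a whole number of reads and L the column's effective library, within 1e-06 reads for 100% of values. The authors' deposited comparison table gives log2 fold changes, p-values and a t score, per the file headers.

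Treatment was tested with limma 3.58.1 (R 4.3.3) on the deposited log2 values, with treatment as the only term, a variance trend and Benjamini and Hochberg adjustment over 281 miRNAs (threshold 0.05, two-sided). Run differences and the treatment by run interaction were F tests in fits with both terms. The limma fit with treatment as the only term was tested on simulated data, and the run, interaction and permutation tests were not. Exact permutation within runs used 12000 relabellings. P-values treat the 20 mice as independent.

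Sequences are from RefSeq (GRCm38.p6), gene models from GENCODE M21. Named are all members, the 3 miRNAs most like each, miRNAs sharing a seed, and arms of the other intronic and marker lists with an unadjusted p under 0.05 in either fit. Members, lists and tests were chosen with earlier results of these data known. Alternatives are given at the end. The planned count models were not run, a choice made because the deposited values are on the log2 scale, although whole reads could be recovered. A fit with voom weights on the recovered reads took the place of these models.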

Additional observations from a re-analysis of the deposited data

Results flagged for a closer look

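In the vehicle group, replicate 7 was far below the other 9 libraries for miR-346-5p, at a log2 level of 5.83 on 23 reads. Its gap to the next library was 0.506 of the group's range, above the 95% critical value of Dixon's test. This was 1 flag in 20 groups of 10 libraries, and chance flags about 1 in 20. Without this library the miR-346-5p difference between treatments was -0.24, the lowest of the fits that left out 1 library.

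The CBD effect on miR-342-5p had opposite signs in 2 runs without overlap of the treatments. It was -0.57 in run 1, with 3 CBD and 2 vehicle libraries, and 1.91 in run 3, with 2 of each. The limma interaction test over the 4 runs gave p = 0.00285, or 0.267 once adjusted. Runs without overlap were also seen in other members, 3 in miR-330-3p and 1 each in miR-139-5p, miR-149-5p, miR-326-3p, miR-342-3p and miR-346-5p. With 2 or 3 libraries per treatment in a run, a lack of overlap carries little weight, and its share over all miRNAs was not counted.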

How the results depend on the processing

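No paired analysis was possible because the labels give mouse numbers that no 2 samples share. The count of miRNAs differing between CBD and vehicle was 0 of 281 (22 at an unadjusted p under 0.05) and stayed 0 in every alternative except array weights, which gave 24, none of them a member. The run term gave 42 at an unadjusted p under 0.05. All miRNAs were higher with CBD in 38.4% of cases, 51.2% after median centring and 27.8% after rescaling to total reads, and their median difference was -0.08, 0.0034 and -0.15. The count differing between runs was 135, and 98 to 159 when each library was left out. The count with a CBD effect differing between runs was 0 (14 unadjusted), 2 without the 3 libraries of low scaling, and 0 to 1 when each library was left out, the 1 being without CBD replicate 7. The arm difference of miR-330 reached p = 0.0415 at -0.33 with the run term, and that of miR-342 reached p = 0.0204 at -0.67 without run 1.

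No member passed after adjustment in any alternative of the treatment comparison, and uncalled differences near 0 turned sign. With array weights miR-139-5p had 0.0284, miR-326-3p 0.16, miR-342-3p 0.0245 and miR-346-5p 0.14. Without the 3 libraries of low scaling these had 0.0054, 0.0193, 0.0256 and 0.12, and with the run term added miR-149-5p had -0.0871 and miR-342-5p -0.0196. Rescaling to total reads gave -0.0053 for miR-149-5p, and array weights with the run term -0.0719. Median centring gave 0.0195 for miR-326-3p and 0.0473 for miR-346-5p, which had 0.0322 after quantile normalisation. Without run 1 miR-326-3p had 0.0302 and miR-346-5p 0.0401. Without run 2 miR-139-5p had 0.0294, miR-326-3p 0.14 and miR-346-5p 0.15. Without run 3 miR-342-5p had -0.0892. When each library was left out the range was -0.12 to 0.23 for miR-149-5p, -0.15 to 0.0482 for miR-326-3p and -0.24 to 0.0808 for miR-346-5p. The cause of these changes was not tested.

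The run differences of miR-149-5p, miR-342-3p, miR-330-3p, miR-139-5p and miR-346-5p passed in all 25 alternatives. The filter at 10 RPM removed 0 miRNAs. The planned edgeR and DESeq2 fits were not run, a choice made because the deposited values are log2. Depth limits miR-342-5p most, with 11 to 148 reads per library.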
